A study of Mus musculus with 24 samples.

Results

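The cytochrome P450 genes of families 1 to 4 were followed in MYC-driven mouse liver tumours. They were taken as the gene names of the expression table made of Cyp, a family number from 1 to 4, a subfamily letter and a gene number. Of 75 such names, 48 reached 1 FPKM in at least 2 libraries. FPKM is a read level scaled to gene length and library size, so levels of different genes can be compared. These 48 stood among 14372 genes that passed the same threshold, out of 54403 gene symbols in the table. Family 1 had 2 of them, family 2 had 29, family 3 had 6 and family 4 had 11. The other 27 names were below the threshold, among them Cyp1a1, a classical target of the aryl hydrocarbon receptor, with a highest value of 3.28 FPKM in 1 library. Cyp2b10, the usual target of the constitutive androstane receptor, reached 1.48 FPKM in 1 library. Just inside the threshold lay Cyp4a31 and Cyp3a44, with 1 FPKM or more in exactly 2 libraries.

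The mice were Lap-tTA/Tet-O-MYC transgenics on the FVB/N strain, in which a liver-active promoter, mainly active in hepatocytes, drives the activator of a MYC transgene that doxycycline silences. MYC was switched on at 4 weeks of age, treatment began 4 to 5 weeks later once imaging showed tumours, and tumour tissue was collected at a stated time after a second dose given 7 days after the first. Weekly injections into the peritoneum gave vehicle (3 libraries, taken at 24 h), RMC-6272 at 10 mg/kg (1 library from 12 h, and from 24, 48 and 72 h 3 apiece) and RMC-4627 at 10 mg/kg (2 libraries, taken at 24 h). Sorafenib, a multikinase inhibitor, was given by mouth at 30 mg/kg per day (3 libraries from 4 h, and from 24 and 48 h 2 apiece), and doxycycline was given in water at 100 µg/ml (2 libraries at 24 h). Both RMC compounds are inhibitors of mTOR complex 1, a kinase complex of cell growth, and every group, vehicle included, carried the MYC transgene. Vehicle was sampled at 24 h alone, so the other times were set against that one group.

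Cytochrome P450 enzymes are heme proteins of the endoplasmic reticulum that oxidise drugs, steroids, fatty acids and other lipids with electrons from the reductase Por. Families 1 to 3 hold most drug-metabolising forms, and family 4 mainly oxidises fatty acids and eicosanoids. Many are made at high level by mature hepatocytes under the control of receptors such as the aryl hydrocarbon receptor, the pregnane X receptor and PPAR alpha, and several are concentrated around the central vein of the liver lobule.

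Promoters were available for 40 of the 48 genes, as 45 start sites among 32851 in the RefSeq table of build GRCm38.p6. The 250 bases before the start are shown for 4 genes, because they stand for opposite behaviours in the data that follow. Cyp2e1 had the highest mean level of the 48 genes in the 20 vehicle, RMC-6272 and sorafenib libraries, and the widest spread between replicates. Cyp2a22, Cyp2s1 and Cyp4f13 each differed between RMC-6272 and vehicle. The windows are chr7:140763569-140763818 on the plus strand for Cyp2e1, and on the minus strand chr7:26939387-26939636 for Cyp2a22, chr7:25816526-25816775 for Cyp2s1 and chr17:32947362-32947611 for Cyp4f13. Each is written along its gene, with a TATAAA match in capitals.
Cyp2e1: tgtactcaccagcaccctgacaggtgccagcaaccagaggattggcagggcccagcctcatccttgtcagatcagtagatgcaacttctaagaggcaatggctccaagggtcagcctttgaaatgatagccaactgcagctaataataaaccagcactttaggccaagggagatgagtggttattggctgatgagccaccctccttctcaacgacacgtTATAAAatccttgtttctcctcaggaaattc
Cyp2a22: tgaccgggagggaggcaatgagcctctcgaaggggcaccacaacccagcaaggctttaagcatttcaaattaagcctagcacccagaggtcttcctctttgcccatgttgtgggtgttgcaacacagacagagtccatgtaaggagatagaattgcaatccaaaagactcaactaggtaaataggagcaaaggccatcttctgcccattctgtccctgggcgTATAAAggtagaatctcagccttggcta
Cyp2s1: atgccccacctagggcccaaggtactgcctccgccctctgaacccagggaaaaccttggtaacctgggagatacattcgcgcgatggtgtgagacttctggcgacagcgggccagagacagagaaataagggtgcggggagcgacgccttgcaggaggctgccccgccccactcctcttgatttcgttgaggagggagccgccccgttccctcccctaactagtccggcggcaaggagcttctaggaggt
Cyp4f13: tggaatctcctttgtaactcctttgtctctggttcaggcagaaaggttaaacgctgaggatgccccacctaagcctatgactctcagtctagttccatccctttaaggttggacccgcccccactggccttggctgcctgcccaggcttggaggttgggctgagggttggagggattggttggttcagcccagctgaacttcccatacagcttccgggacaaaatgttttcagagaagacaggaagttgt

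The letters TATAAA, on either strand and anywhere in the window, were present in 20 of the 45 P450 start sites (44.4%) and in 12.4% of all 32851. On the gene's own strand and between 20 and 40 bases before the start, where a TATA box lies, they were present in 9 of 45 (20%) against 1.99% of all. Those 9 genes were Cyp1a2, Cyp2a12, Cyp2a22, Cyp2a4, Cyp2a5, Cyp2c38, Cyp2c55, Cyp2c67 and Cyp2e1. The match began 31 bases before the start in Cyp2e1 and 28 in Cyp2a22. Cyp2s1 and Cyp4f13 had none in their windows. The canonical E-box CACGTG, the core letters of sites bound by MYC with MAX, was found in 2 of 45 (4.44%) against 6.02% of all, in Cyp2j6 and Cyp4v3. The core of the aryl hydrocarbon receptor's element, GCGTG, was found in 5 of 45 (11.1%) against 28.2% of all. Both strands were searched for each, and none of these matches is known from these data to be a bound site.

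Levels covered a wide range. Over the 20 vehicle, RMC-6272 and sorafenib libraries, mean FPKM was over 10 in 21 of the 48 genes, and 13 genes were at 1 FPKM or more in all 20. The highest means belonged to Cyp2e1, the enzyme of ethanol and acetaminophen (148 FPKM), Cyp2d26 (99.9 FPKM) and Cyp2d10 (67.5 FPKM) in family 2. In family 3 they belonged to Cyp3a11, the main target of the pregnane X receptor (52.5 FPKM), Cyp3a25 (17.6 FPKM) and Cyp3a13 (12.5 FPKM). In family 4 the highest were the PPAR alpha target Cyp4a14 (20.3 FPKM), Cyp4a10 (15.8 FPKM) and Cyp4v3 (11.9 FPKM). Family 1 held Cyp1a2, the hepatic enzyme of caffeine and arylamines (18.2 FPKM), and Cyp1b1, which is made largely outside hepatocytes and never passed 2.65 FPKM in these 20 libraries.

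**Figure D1:**
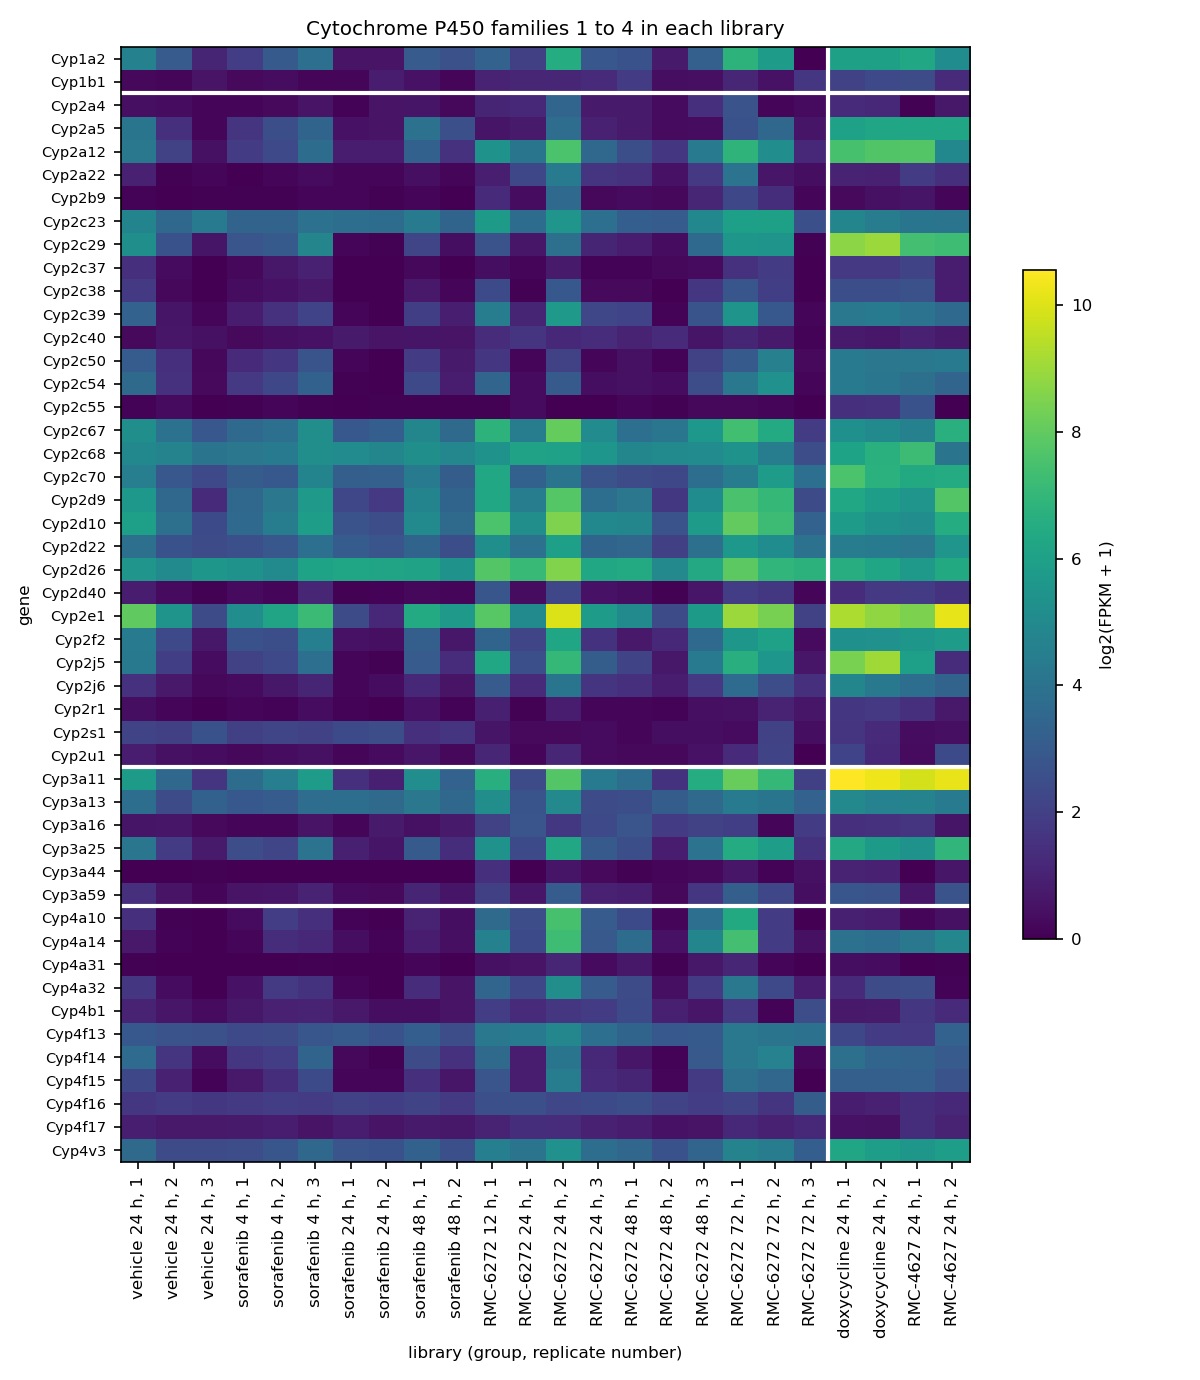
Level of each of the 48 genes (rows, by family) in each of the 24 libraries (columns) as log2(FPKM + 1). Most rows brighten and darken together within a group, with RMC-6272 24 h replicate 2 the highest of the 20 vehicle, RMC-6272 and sorafenib libraries for 20 genes. The 4 columns right of the white line show no single-read steps.

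The genes moved together between libraries that share a treatment. In vehicle, Cyp2e1 was at 254, 43.3 and 4.38 FPKM, Cyp1a2 at 24.1, 7.24 and 1.14 FPKM, and Cyp3a11 at 53.2, 11.0 and 1.98 FPKM. Replicate 1 was highest, replicate 3 lowest and replicate 2 between them for each of these enzymes. Vehicle replicate 1 was the highest of its group for 40 of the 48 genes, against 37.5% of all genes, and replicate 3 the lowest for 36, against 32.2% of all genes. After RMC-6272, replicate 2 was the highest for 39 genes at 24 h (39.5% of all genes), replicate 3 for 37 at 48 h (32.1%) and replicate 1 for 34 at 72 h (31.3%). Sorafenib had the same kind of library, with replicate 3 highest for 39 genes at 4 h (35.4%) and replicate 1 for 44 at 48 h (46.8%).

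The spread within groups was wide for this gene set. The pooled standard deviation within groups of log2(FPKM + 1) had a median of 0.91 over the 48 genes and 0.26 over all genes tested. It was widest in Cyp2e1 (2.39), Cyp3a11 (2.25), Cyp4a14 (2.09), Cyp1a2 (2.05), Cyp2f2, the naphthalene enzyme (2.05), and Cyp2j5, an epoxygenase of arachidonic acid (2.05). At least 99.8% of all genes had a narrower spread than each of these 6. It was narrowest in Cyp2c55 (0.11), Cyp4f17 (0.16) and Cyp3a44 (0.17), each with a low mean level. Cyp4f13 had 0.31, above the median of all genes. The 9 genes with TATAAA at the usual TATA position had a median spread of 1.33 (range 0.11 to 2.39) and the 31 others with a promoter 0.86 (range 0.17 to 2.25), so the ranges overlapped.

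**Figure D2:**
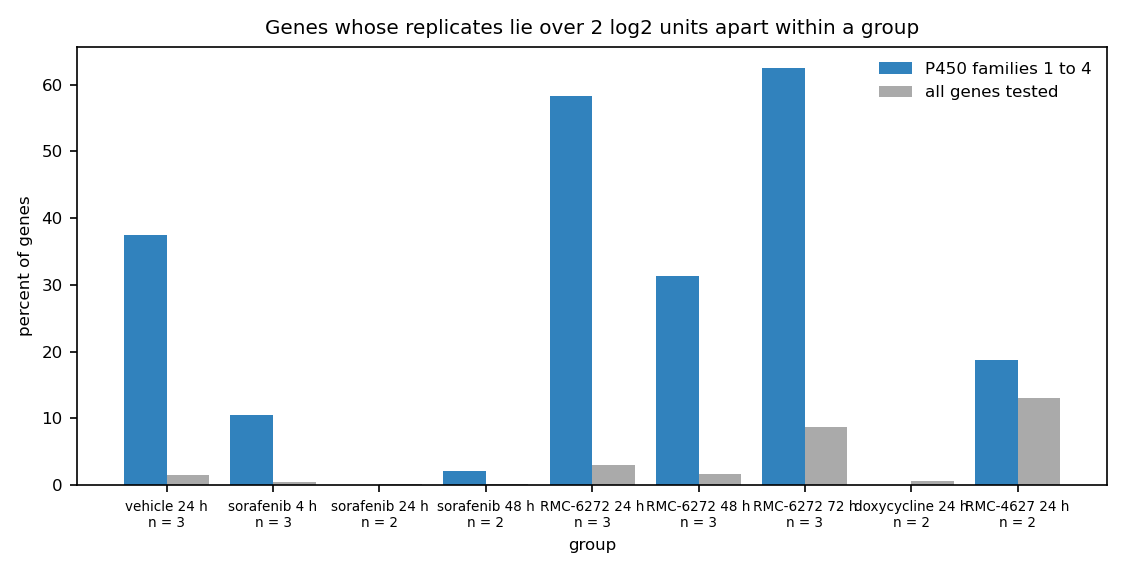
Percent of genes (y axis) whose highest and lowest replicate in a group differ by over 2 units of log2(FPKM + 1), for the 48 genes (blue) and all genes tested (grey). In vehicle it was 37.5% against 1.45%, in RMC-6272 24 h 58.3% against 3.03% and in RMC-6272 72 h 62.5% against 8.68%. It was 0% of the 48 genes in sorafenib 24 h and in doxycycline. These groups had 2 libraries, over which a range tends to be narrower than over 3.

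The summed level of the 48 genes shows the same libraries. It was 838.3, 233.4 and 141.9 FPKM in vehicle, 470.6, 3890 and 419.9 in RMC-6272 24 h, 336.7, 145.8 and 659.1 at 48 h and 2813, 1640 and 229.4 at 72 h. The single RMC-6272 12 h library had 1531 FPKM. Sorafenib had 219.5, 301.6 and 699.4 FPKM at 4 h, 200.4 and 179.7 at 24 h and 481.4 and 236.7 at 48 h. Of these 17 treated libraries, 4 lay above the highest vehicle library, namely RMC-6272 24 h replicate 2, 72 h replicates 1 and 2, and the 12 h library. Albumin, the main secreted protein of hepatocytes, was at 2849, 1425 and 732.1 FPKM in vehicle and at 5555, 12907 and 3773 FPKM in RMC-6272 24 h. In both of these groups it was highest in the same library as the P450 sum.

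**Figure D3:**
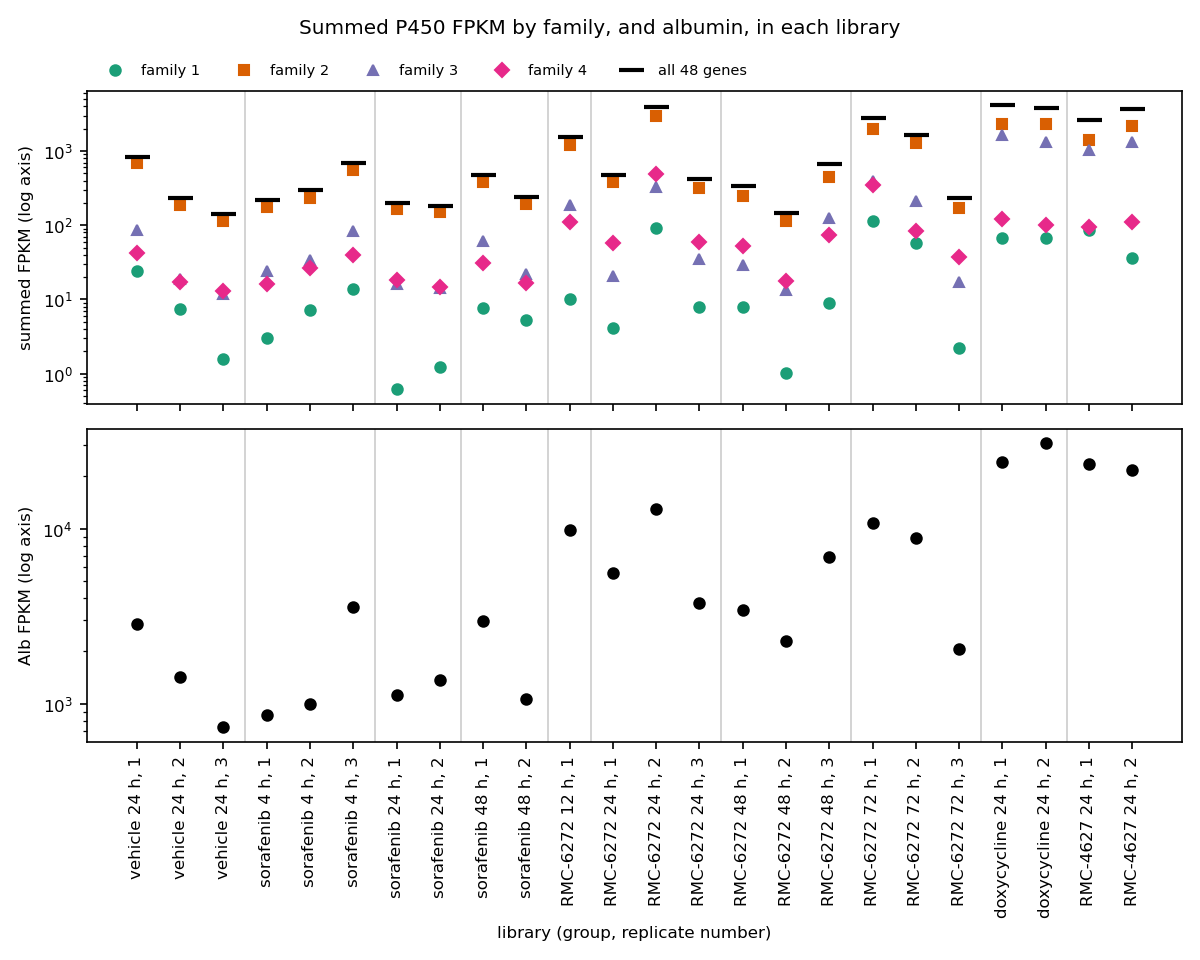
Summed FPKM of the genes of each family and of all 48 (upper panel) and FPKM of albumin, Alb (lower panel), in each of the 24 libraries, both on log axes. In vehicle both are highest in replicate 1 and lowest in replicate 3, and after RMC-6272 at 24 h both are highest in replicate 2.

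The tissue label was compared with markers. Of 13 hepatocyte markers 12 were in the table and all were tested. Their summed level was 4206 to 7442 FPKM in vehicle, 4469 to 11516 in sorafenib, 14289 to 37267 in RMC-6272 24 h, 8111 to 15808 at 48 h and 11344 to 31591 at 72 h. At 48 h that sum was highest in replicate 1 (15808 FPKM), not in replicate 3 (14974 FPKM), where the P450 sum was highest. At RMC-6272 24 h 6 of these 12 rose and 0 fell, among them Fgb (1.94 ± 0.25 log2, adjusted p = 0.000754) and Ahsg. Of all genes tested, 14.4% rose and 19.3% fell in that comparison with vehicle. Markers of other cells were present as well. Macrophage markers summed to 553 to 768 FPKM in vehicle and 1387 to 1580 in RMC-6272 24 h, with 2 of 11 higher (Cd68 and Lyz2), and 12 of 12 proliferation genes fell. RMC-6272 72 h replicate 3 stood apart, with 37380 FPKM of red cell markers against at most 2759 in any other library, 2693 FPKM of neutrophil markers against at most 149, and the lowest depth, 17.6 M reads. At RMC-6272 24 h 13 of 19 acute phase genes rose and 0 fell (median 2.22 log2), and 2 of 10 stellate and fibroblast markers rose (Pdgfrb and Des). Of 12 periportal hepatocyte markers 5 rose and 1 fell (median 0.85 log2), and of 11 pericentral markers outside the P450 genes 1 rose, Nkd1 (median 0.49 log2). Both lists had their highest sum in replicate 2 (1428 FPKM periportal and 838 FPKM pericentral), the replicate with the highest P450 sum. Of 7 oncofetal liver markers 2 rose and 0 fell at RMC-6272 24 h. In vehicle their sum was lowest in replicate 1 (5045 FPKM), where the P450 sum was highest. So it was in RMC-6272 24 h replicate 2 (6995 FPKM) and 72 h replicate 1 (4941 FPKM). At 48 h it was lowest in replicate 2 (7010 FPKM), where the P450 sum was lowest. In sorafenib 4, 24 and 48 h it was highest in the library with the highest P450 sum (8870, 11664 and 10640 FPKM). In bulk tumour, fewer cells of a type and less RNA per cell cannot be told apart, and the part of these markers in the P450 results was not tested.

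The comparison of RMC-6272 with vehicle at 24 h asked how inhibition of mTOR complex 1 altered the P450 genes. Of the 48, 8 rose and 1 fell, where 33.7% of all genes changed (14.4% rose and 19.3% fell). The median difference was 0.92 log2 over the 48 genes against 0.00 over all, and 40 of 48 were positive, against 50.2% of all genes. The 48 genes move together by library, so their signs are not separate observations. In 18 of the 48 genes no library of one group fell among those of the other, 17 higher (23.6% of all genes) and 1 lower (25.6% of all), against 49.2% of all genes in either direction. Whether replicates came from separate mice or tumours is not stated, so p-values measure the spread between samples. The codes that begin the authors' library labels are not shared between vehicle and RMC-6272, so code and treatment cannot be told apart. Differences are in log2(FPKM + 1) with standard errors, and adjusted p is from limma's two-sided test with Benjamini-Hochberg adjustment over all genes tested.

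Cyp4f13, a hydroxylase of leukotrienes and fatty acids, was at 6.57, 5.45 and 5.22 FPKM in vehicle and 19.5, 28.6 and 13.5 FPKM in RMC-6272 24 h. Every treated library lay above every vehicle library. The difference was 1.62 ± 0.25 log2 (adjusted p = 0.001). Its level was 7.71 ± 1.66 FPKM (SD, n = 3) at 48 h and 16.0 ± 1.45 FPKM (SD, n = 3) at 72 h, with 17.7 FPKM in the 12 h library. It rose at 72 h against vehicle (1.33 ± 0.25 log2, adjusted p = 0.00601) but not at 48 h (0.36, 95% interval -0.17 to 0.88, adjusted p = 0.414).

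Cyp2s1, an extrahepatic enzyme of retinoids and eicosanoids, went the other way. It was at 3.44, 2.97 and 5.33 FPKM in vehicle and 0.211, 0.221 and 0.239 FPKM in RMC-6272 24 h, or 456 to 966 reads against 35 to 44. It fell by 1.98 log2 (standard error 0.34, adjusted p = 0.00143). At 48 h it was at 0.133, 0.3 and 0.321 FPKM and fell by 1.95 log2 (adjusted p = 0.0482), one of 15 genes (0.104% of all) called at that time. This call was lost with a pseudocount of 0.1 (adjusted p = 0.0556), without a filter on low values (0.0892), with Xist as covariate (0.107), and without any 1 vehicle library or RMC-6272 48 h replicate 1 or 2 (0.0719 to 0.271). At 72 h it fell by 1.35 log2 (adjusted p = 0.0155), although replicate 2 was at 3.22 FPKM, within the vehicle range, and the other 2 were at 0.223 and 0.299 FPKM. The 12 h library was at 0.529 FPKM, below every vehicle library, and sorafenib libraries were at 1.67 to 4.59 FPKM. No other of the 48 genes fell against vehicle at 24, 48 or 72 h of RMC-6272.

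Of the other 7 genes that rose at 24 h, 3 were of family 4. Cyp4v3, a fatty acid hydroxylase, went from 11.5, 4.27 and 4.27 FPKM to 15.5, 39.9 and 13.2 FPKM (1.59 ± 0.49 log2, adjusted p = 0.0238). Cyp4f17 went from 0.627 to 0.855 FPKM in vehicle to 0.981 to 1.58 FPKM (0.47 ± 0.14 log2, adjusted p = 0.0174), a small difference between libraries that stay close to each other. It reached 1 FPKM only in RMC-6272 and RMC-4627 libraries, so its call is not independent of the filter on low values. Cyp4a32, of the PPAR alpha responsive subfamily, was at 2.14, 0.293 and 0 FPKM in vehicle and 3.85, 36.7 and 7.24 FPKM after treatment (2.84 ± 0.85 log2, adjusted p = 0.0202). Its treated libraries were all above vehicle but differed widely among themselves.

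In families 2 and 3, Cyp2d26 was at 44.9, 32.3 and 47.7 FPKM in vehicle and 138, 374 and 78.3 FPKM in RMC-6272 24 h (1.93 ± 0.53 log2, adjusted p = 0.0127), and rose again at 72 h, where it was at 240, 123 and 109 FPKM (1.82 ± 0.53 log2, adjusted p = 0.0248). It had the highest level of the genes that changed. Cyp3a16, known as a fetal form of family 3, went from 0.189 to 0.558 FPKM to 5.91, 2.29 and 4.09 FPKM (1.79 ± 0.41 log2, adjusted p = 0.00518). Cyp2c40 went from 0.22 to 0.568 FPKM to 1.25 to 2.10 FPKM (0.91 ± 0.22 log2, adjusted p = 0.00677). It reached 1 FPKM in 7 libraries, all of RMC-6272, so its call is not independent of the filter on low values. Cyp2a22 went from 0.0467 to 0.939 FPKM to 3.93, 19.3 and 2.05 FPKM (2.37 ± 0.80 log2, adjusted p = 0.0355). Of the 50-base stretches of their transcripts, 72.1% in Cyp2c40, 46.8% in Cyp4a32 and 20.5% in Cyp2a22 occur in another gene, so how reads were shared among these near copies makes their values uncertain. That share is 0% in Cyp2s1 and 2.70% in Cyp4f13, and over 20% in 18 of the 48 genes.

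**Figure D4:**
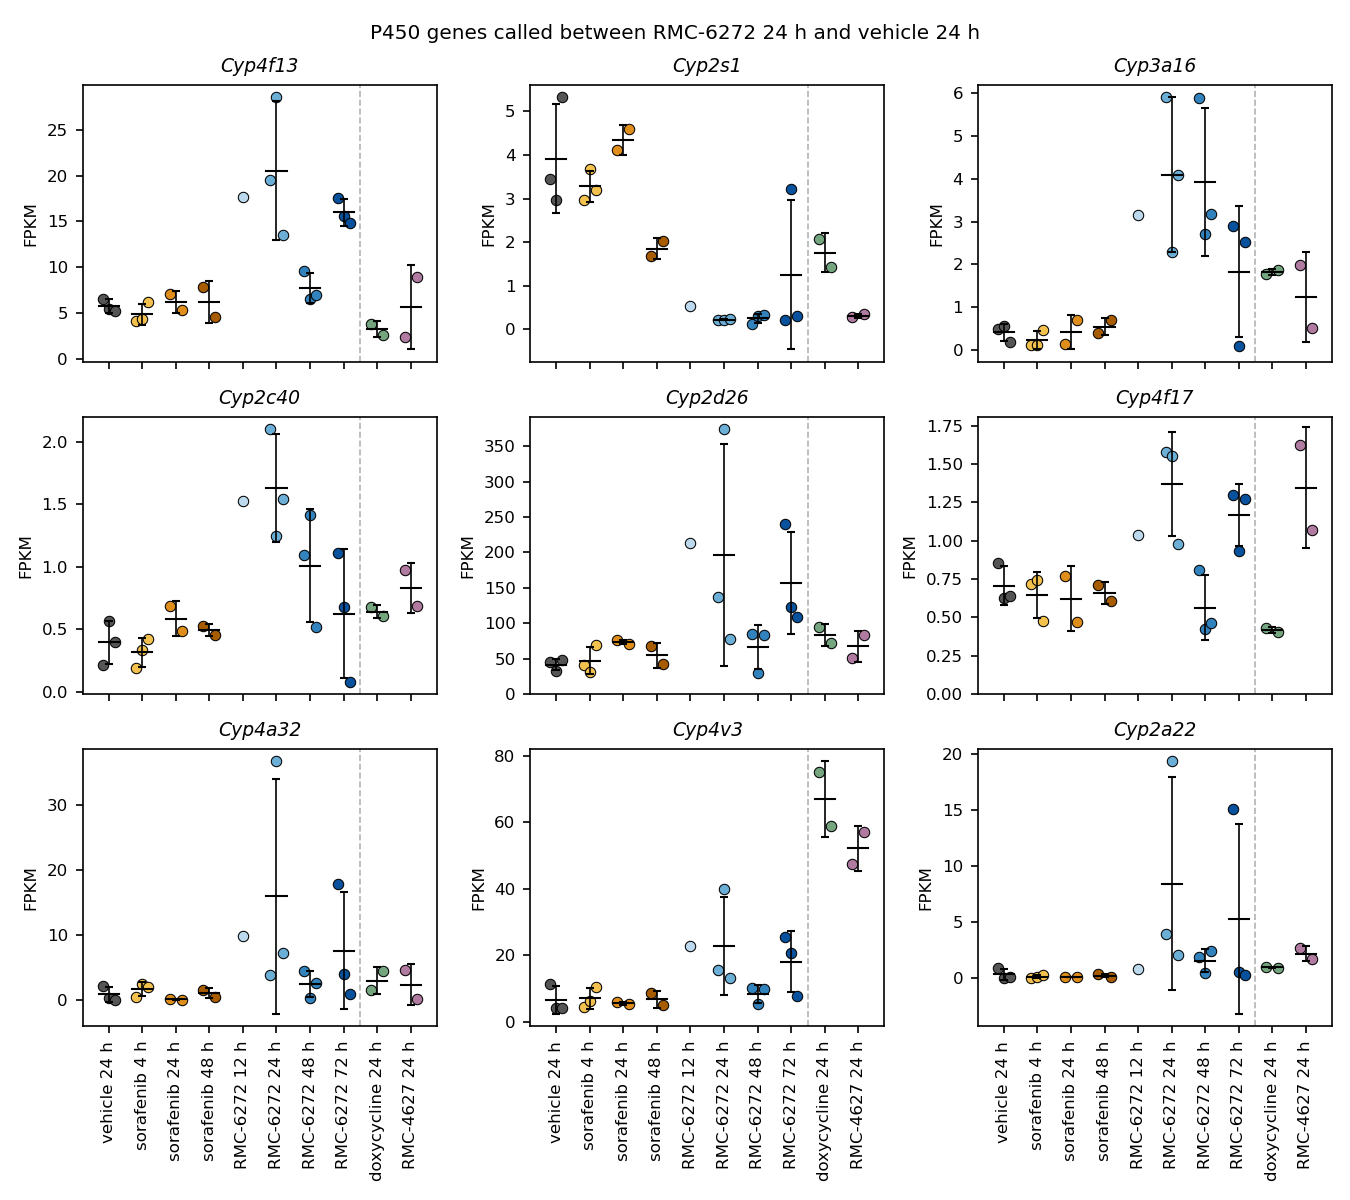
FPKM per library (points) with mean and SD (bars, where n is 2 or 3) of the 9 genes called between RMC-6272 24 h and vehicle 24 h, over the 10 groups. Cyp2s1 is near 0.2 FPKM in all RMC-6272 24 h libraries and at 2.97 to 5.33 in vehicle, and Cyp4f13 is higher at 12, 24 and 72 h than at 48 h. Groups right of the dashed line show no single-read steps.

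Cyp2e1, with the highest mean of the 48 genes, did not pass the test at 24 h, and neither did Cyp3a11, Cyp1a2, Cyp4a10 or Cyp4a14. Cyp2e1 was at 31.3, 1022 and 54.6 FPKM, across the vehicle range of 4.38 to 254 (1.64 ± 1.80 log2, 95% interval -2.21 to 5.49, adjusted p = 0.509). Cyp3a11 was at 4.54, 212 and 18.6 FPKM and Cyp1a2 at 2.98, 91.7 and 6.34 FPKM, in both cases with 1 library above and the other 2 within the vehicle range. The PPAR alpha targets Cyp4a10 (4.71, 179 and 7.15 FPKM) and Cyp4a14 (4.24, 155 and 6.77 FPKM) were above every vehicle library, at most 1.76 and 0.657 FPKM, with differences of 3.84 ± 1.48 log2 (adjusted p = 0.0589) and 3.93 ± 1.58 log2 (adjusted p = 0.0673). Outside the P450 genes, 9 of 14 PPAR alpha targets rose in the same comparison, among them Plin2, the coat protein of lipid droplets (3.21 ± 0.53 log2, adjusted p = 0.00128). Of all genes tested, 14.4% rose there.

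Without RMC-6272 24 h replicate 2, 4 of the 48 genes were called, against 9 with it, and without vehicle replicate 2 or 3 it was 5. It was 6 with no filter on low values and 6 with the level of Xist as a covariate. Shares of all genes called under these alternatives are not given here, so these counts have no background beside them. Of 4 sex-linked genes tested, 3 rose at RMC-6272 24 h and 0 fell, where 14.4% of all genes rose. The sex-linked list summed to 15.7 to 19.6 FPKM in vehicle and 33.1 to 33.9 FPKM in RMC-6272 24 h. Apart from the Xist covariate, the part of this difference in the P450 results was not tested. Cyp4f13, Cyp2s1, Cyp3a16 and Cyp2c40 kept an adjusted p under 0.05 in each of the alternatives run. Of these, Cyp2c40 passed the filter on low values only through RMC-6272 libraries.

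At 48 h 0 of the 48 genes rose against vehicle and Cyp2s1 alone fell, where 0.0348% of all genes rose and 0.0696% fell. At an unadjusted p under 0.05 were 3 of the 48 (6.25%) and 21.8% of all genes. Cyp3a16 was at 5.89, 2.71 and 3.17 FPKM, above all vehicle libraries, without passing (1.75 ± 0.41 log2, adjusted p = 0.0677). Between 24 and 48 h, 45 of the 48 genes were lower at 48 h by the fitted mean, with a median of -0.85 log2 against 0.00 over all genes. Of all genes, 49.5% were higher at 48 h by the fitted mean. Again the 48 genes move together by library. Among the 48, calls were few. One of the 45 lower genes passed the test, where 0.404% of all genes were called and 0.0905% were called lower. It was Cyp4f13, which fell by 1.26 log2 (standard error 0.25, adjusted p = 0.0466), with all 48 h libraries below all 24 h libraries. This call was lost without a filter, with Xist as covariate, in the fit of all 24 libraries, and without RMC-6272 24 h replicate 1 or 2 or 48 h replicate 2 or 3.

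At 72 h 2 genes rose against vehicle, Cyp4f13 and Cyp2d26, and Cyp2s1 fell, 3 of 48 where 25.4% of all genes were called (10.2% higher and 15.2% lower). The median difference was 1.17 log2 against 0.02 over all genes, and 45 of 48 were positive, against 51.3% of all genes. As at 24 h, these signs are not separate observations. The highest and lowest replicate differed by over 2 log2 units in 30 of the 48 genes, or 62.5%, against 8.68% of all genes. Cyp2e1 was at 501, 333 and 3.16 FPKM, Cyp3a11 at 273, 130 and 3.02 FPKM and Cyp1a2 at 113 and 56.5 FPKM. In each of these, replicate 3 was under the middle vehicle library and the other 2 were above all 3 vehicle libraries. Cyp1a2 is only listed at 0 in replicate 3. The count was 9 without replicate 3, 9 without replicate 2 and 1 without vehicle replicate 3, with no share of all genes given beside it. Between 72 and 48 h, limma called 0 of the 48 genes and 0% of all genes, and at an unadjusted p under 0.05 were 8 of the 48 (16.7%) and 20.6% of all genes. In the single 12 h library 36 genes were above every vehicle library (36.8% of all genes) and 1 below (36.0% of all).

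**Figure D5:**
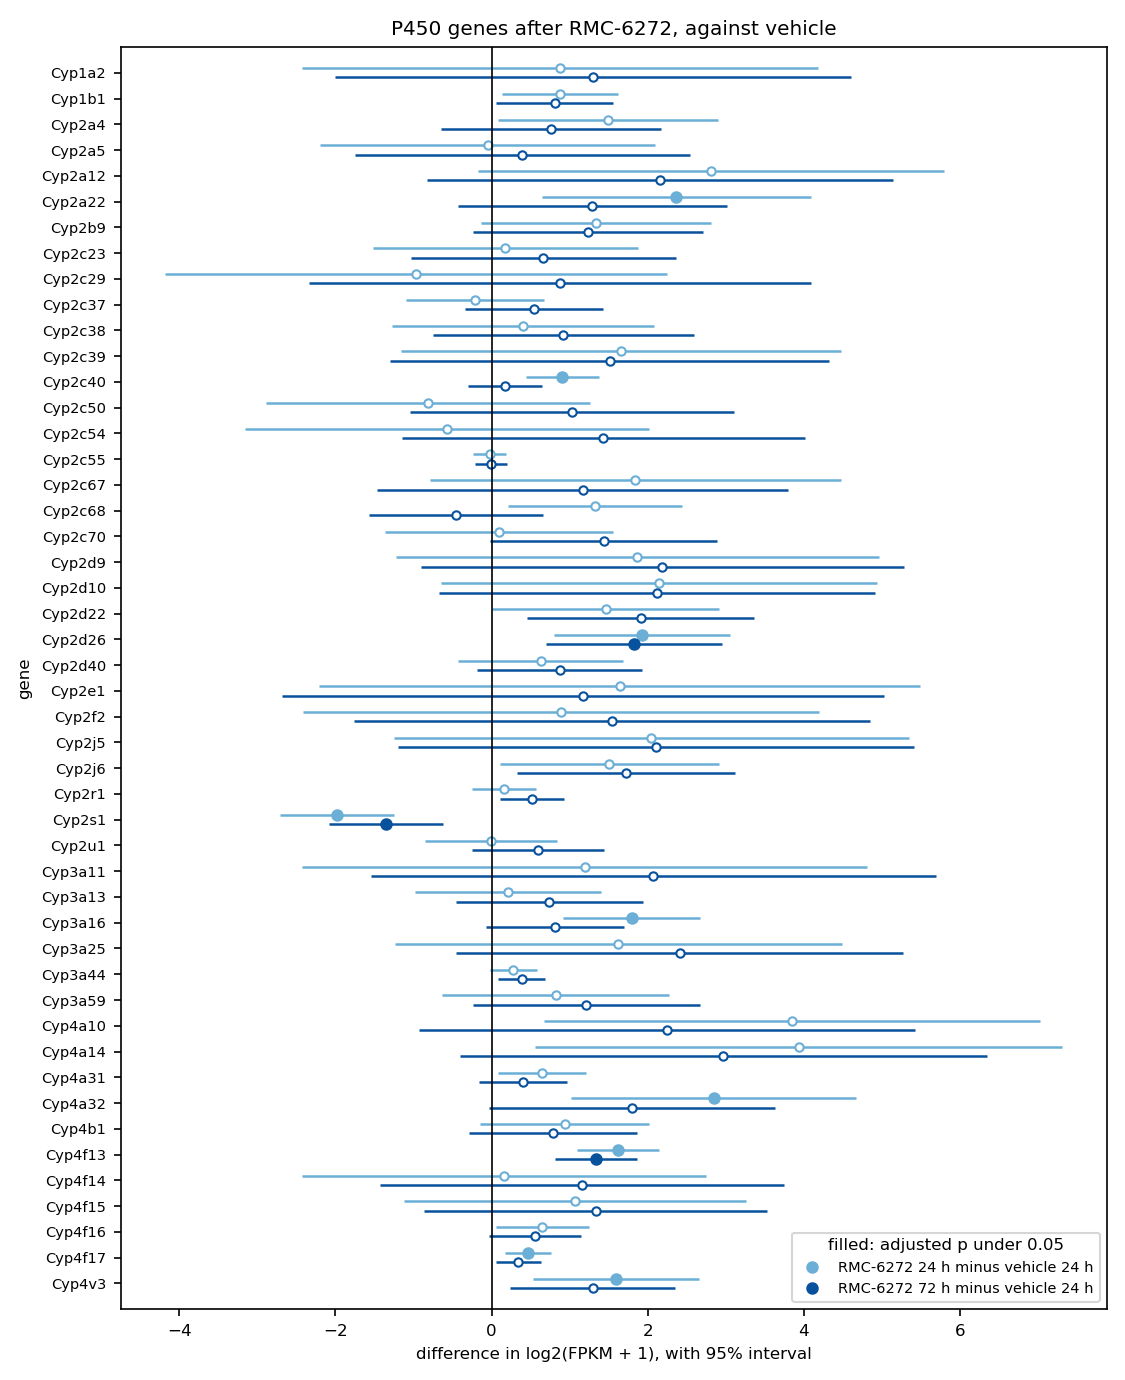
Difference in log2(FPKM + 1) from vehicle 24 h of the 48 genes in RMC-6272 24 h (light blue) and 72 h (dark blue), with 95% intervals and filled points where adjusted p is under 0.05. Most points lie right of 0, with a median of 0.92 at 24 h and 1.17 at 72 h, but intervals of genes such as Cyp2e1 cross 0, and Cyp2s1 is the only gene called below 0.

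Genes that work with or control these enzymes were taken from lists. Beside each count at RMC-6272 24 h stands the background of all genes, of which 14.4% rose and 19.3% fell against vehicle. Of 7 redox partners, 0 rose and 1 fell at RMC-6272 24 h, Cyb5b, the cytochrome b5 of the outer mitochondrial membrane (-1.69 ± 0.27 log2, adjusted p = 0.00116). Por was at 27.3, 28.6 and 30.1 FPKM in vehicle and 37.0, 152.8 and 41.1 FPKM after treatment (1.08 ± 0.53 log2, adjusted p = 0.131). Of 25 receptors and factors of P450 control 7 rose and 0 fell. Nr1i2, the pregnane X receptor, rose from 5.0, 2.2 and 7.3 FPKM to 24.3, 66.6 and 24.2 FPKM (2.69 ± 0.59 log2, adjusted p = 0.00405). Ppara (1.71 ± 0.45 log2, adjusted p = 0.0107) and Cebpa (1.34 ± 0.36 log2, adjusted p = 0.0114) rose as well. Of 14 P450 genes of other families 1 rose and 1 fell, the prostacyclin synthase Ptgis and the sterol demethylase Cyp51. Of 4 flavin mono-oxygenases Fmo1 (2.14 ± 0.54 log2, adjusted p = 0.00827) and Fmo2 rose. Of 5 epoxide hydrolases and arachidonic acid enzymes, Ephx1 (2.54 ± 0.91 log2, adjusted p = 0.0446) and Ephx2 (2.61 ± 0.74 log2, adjusted p = 0.0151), which hydrolyse epoxides that P450 enzymes can form, rose. Of 32 conjugating enzymes 2 rose, the glutathione transferase Gstt2 and the thiopurine methyltransferase Tpmt, and 2 fell, the glutathione transferases Gstm3 and Gstt3.

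At 72 h 0 of 7 redox partners rose and 1 fell, 3 of 25 receptors and factors rose and 1 fell, and 5 of 14 PPAR alpha targets rose and 0 fell. Of 14 P450 genes of other families 3 rose and 1 fell, of 32 conjugating enzymes 4 rose and 0 fell, and of 4 flavin mono-oxygenases and 5 epoxide hydrolases and arachidonic acid enzymes 0 passed, where 10.2% of all genes rose and 15.2% fell. At RMC-6272 48 h and at sorafenib 24 h no gene of any of these lists passed the test against vehicle. Of all genes, 0.104% and 0.00696% were called in these comparisons.

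For sorafenib at 24 h, limma called 0 of the 48 genes and 0.00696% of all genes against vehicle. At an unadjusted p under 0.05 were 0 of the 48 and 3.90% of all genes. The groups were separate in 13 of the 48, 2 higher (13.1% of all genes) and 11 lower (16.8% of all), against 30.0% of all genes in either direction. Cyp2e1 was at 4.36 and 1.26 FPKM and Cyp3a11 at 1.68 and 0.902 FPKM, both below the lowest vehicle library. For Cyp2e1 the groups barely separate. Sorafenib 24 h replicate 1 was at 4.364 FPKM (331 reads) and vehicle replicate 3 at 4.378 FPKM (347 reads). The interval for Cyp2e1 (-7.80 to 0.81 log2) spans a large fall as well as none. Over the mean of the 3 sorafenib times limma also called 0 of 48 and 0.00696% of all genes, with 0 of 48 and 3.21% of all genes at an unadjusted p under 0.05. Intervals were narrower for Cyp4f13 (-0.47 to 0.42 log2) and Cyp2s1 (-0.88 to 0.36 log2).

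RMC-6272 and sorafenib were set against each other at matched times. At 24 h, 5 of the 48 genes were higher with RMC-6272 (Cyp3a16, Cyp4a32, Cyp4f13, Cyp4f17 and Cyp4v3) and Cyp2s1 was lower, where 17.7% of all genes were called (7.15% higher and 10.6% lower). Cyp4f17 was below 1 FPKM in every sorafenib and vehicle library, so its call is not independent of the filter on low values. The groups were separate in 42 of the 48, 41 higher (29.9% of all genes) and 1 lower (31.3% of all), against 61.2% of all genes in either direction. Here too the 48 genes move together by library, so these are not separate observations. The summed P450 level was 200.4 and 179.7 FPKM in these sorafenib libraries. Cyp4f13 was at 7.02 and 5.31 FPKM with sorafenib (1.54 ± 0.27 log2, adjusted p = 0.00638) and Cyp2s1 at 4.10 and 4.59 FPKM (-2.13 ± 0.38 log2, adjusted p = 0.00638). The count was 0 without either sorafenib library and 3 without RMC-6272 replicate 2. Shares of all genes called without these libraries are not given here. At 48 h limma called 0 of 48 and 0% of all genes, with 3 of the 48 (6.25%) and 12.7% of all genes at an unadjusted p under 0.05.

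The doxycycline and RMC-4627 libraries are given apart. In the other 20 libraries 98.2 to 98.7% of low values were whole numbers of reads, and in these 4 only 2.64 to 4.03%, so their depth is unknown. How these columns were made cannot be told apart from the treatment in comparisons with the rest. Their summed level of the 48 genes was 4149 and 3822 FPKM in doxycycline and 2626 and 3648 FPKM in RMC-4627, above the 141.9 to 838.3 FPKM of vehicle. Cyp3a11 was at 1507 and 1243 FPKM in doxycycline and 948.6 and 1180 in RMC-4627, and Cyp2c29, an epoxygenase, at 426 and 494 and at 168 and 155 FPKM. In vehicle these were at most 53.2 and 36.9 FPKM. All 4 libraries were above every vehicle library in 24 of the 48 genes (17.8% of all genes), and above all 20 other libraries in 5 (7.75% of all). Hepatocyte markers summed to 29076 to 53837 FPKM in them.

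Doxycycline against RMC-4627 compares 2 groups that both lack those steps. One of the 48 genes was higher with doxycycline and 1 lower, where 11.7% of all genes were called (6.12% higher and 5.53% lower). Cyp3a44 was at 1.03 and 0.966 FPKM against 0.0252 and 0.538 FPKM (0.67 ± 0.21 log2, adjusted p = 0.0439), and Cyp4f17 at 0.432 and 0.406 FPKM against 1.63 and 1.07 FPKM (-0.72 ± 0.18 log2, adjusted p = 0.0171). Neither was called when the 2 groups were fitted alone. Cyp4f17 reached 1 FPKM only in RMC-6272 and RMC-4627 libraries, so its call is not independent of the filter on low values. Cyp3a44 passed the filter on low values only through doxycycline replicate 1 and the RMC-6272 12 h library (1.69 FPKM). Its call is therefore not independent of the filter. Cyp2s1 was at 2.07 and 1.44 FPKM with doxycycline and 0.275 and 0.343 FPKM with RMC-4627, without overlap (1.06 ± 0.39 log2, adjusted p = 0.094). Cyp2j5 was at 340 and 525 FPKM with doxycycline and at 61.6 and 1.56 FPKM with RMC-4627, which lie far apart (5.06 ± 1.90 log2, adjusted p = 0.0989).

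RMC-6272 and RMC-4627, the 1 pair of related compounds, were both measured at 10 mg/kg and 24 h, although only the first in columns with single-read steps. Of the 48 genes 4 were higher with RMC-6272 (Cyp3a16, Cyp4a10, Cyp4f13 and Cyp4f16) and 8 lower (Cyp2a5, Cyp2c29, Cyp2c50, Cyp2c55, Cyp2c70, Cyp2r1, Cyp3a11 and Cyp4v3), where 46.9% of all genes were called (31.7% higher and 15.2% lower). All genes were shifted by a median of 0.33 log2 and the 48 by -0.65. Of all calls 67.5% were higher with RMC-6272, and 52.7% after median-ratio scaling and 47.2% after quantile normalization, with 3 and 2 of the 48 higher and 10 and 13 lower. Shares of all genes called after these scalings are not given here. Cyp4f13 was at 2.36 and 8.87 FPKM with RMC-4627, all below RMC-6272 (1.84 ± 0.37 log2, adjusted p = 0.000568). Cyp2s1 was low with both, at 0.211 to 0.239 and 0.275 to 0.343 FPKM, with an interval of the difference from -0.86 to 0.66 log2. Cyp2c55 rests on 1 library, as RMC-4627 was at 5.34 and 0 FPKM. It passed the filter only through that library and doxycycline, with at most 0.238 FPKM in the 20 vehicle, RMC-6272 and sorafenib libraries. Its call is therefore not independent of the filter.

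Doxycycline against vehicle, with the same difference between columns, called 18 of the 48 genes higher and 1 lower, where 53.9% of all genes were called, 19.1% higher and 34.8% lower. The median of the 48 was 1.59 log2 against -0.29 over all genes. Without the doxycycline libraries, Cyp2c55 and Cyp3a44 would not have passed the filter on low values. The groups were separate in 41 of the 48, 37 higher (30.6% of all genes) and 4 lower (47.8% of all), against 78.4% of all genes in either direction. Since the 48 genes move together by library, these are not separate observations. Cyp3a11 was 1375 ± 187 FPKM (SD, n = 2) against 22.1 ± 27.4 FPKM (SD, n = 3), a difference of 6.78 ± 1.73 log2 (adjusted p = 0.00323). Cyp2j5 (6.54 ± 1.74 log2, adjusted p = 0.00425) and Cyp2c29 (6.01 ± 1.54 log2, adjusted p = 0.00322) followed. Cyp2r1, a vitamin D 25-hydroxylase, went from 0.0129 to 0.298 FPKM to 2.15 and 2.41 FPKM (1.52 ± 0.24 log2, adjusted p = 4.78e-05). Cyp4f16 was the 1 lower, at 0.809 and 0.961 FPKM against 2.18 to 2.68 FPKM (-0.84 ± 0.29 log2, adjusted p = 0.0235), and was not called lower after median-ratio scaling, where 25 of the 48 were higher and 0 lower. Of all calls, 35.4% were higher, and 48.8% after that scaling. The share of all genes called after that scaling is not given here, so the 25 has no background beside it. Cyp2e1 was above every vehicle library at 611 and 442 FPKM without passing (3.73 ± 1.86 log2, adjusted p = 0.101), and Cyp2s1 was below every one (-0.81 ± 0.36 log2, adjusted p = 0.0659).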

How the data were processed

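RNA from tumour tissue was sequenced and the authors deposited 1 table of FPKM per gene for all 24 libraries. Reads were aligned with STAR 2.5 to mouse build mm9 and counted with HTSeq 0.6.1, per the submitters' processing notes. No reads or counts were given, so alignment was not repeated.

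The table had 54532 entries. Left out were 27 with a number in place of a gene name and 102 repeats of a symbol, keeping the entry of highest mean. Genes at 1 FPKM or more in at least 2 libraries were tested as log2(FPKM + 1), which understates changes of low genes, with no further scaling. limma 3.58.1 (trend, 1 mean per group) in R 4.3.3 was fitted to the 20 vehicle, RMC-6272 and sorafenib libraries for 9 comparisons and to all 24 libraries for the 3 with doxycycline or RMC-4627. Tests were two-sided, with Benjamini-Hochberg adjusted p under 0.05 as the threshold, and the scripts were tested on simulated data. Sums of FPKM were not tested.

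Low FPKM values times gene length are multiples of what 1 read is worth, which gave the depth. Multiples up to 20 counted as whole when they were off by at most 0.02. By this 20 libraries had 17.6 to 41.7 M reads (median 34.9 M), and numbers of reads carry counting error only. For doxycycline and RMC-4627 the depth is unknown.

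Genes named are a panel of 21 P450 genes where present, called members with a mean of at least 5 FPKM in the higher group (up to 12 each way), the 3 highest of each family, and up to 4 of each other list. Called members under 5 FPKM, the genes with widest or narrowest spread and those in promoter matches were named after their values were seen. The members and lists were chosen with earlier results of these data known. Alternatives were the pseudocount, the filter, 2 scalings, a replicate block, Xist as covariate, another set of libraries in the fit, and leaving out each library. Replicate numbers did not pair samples (median correlation of deviations 0.02 over 52 same-numbered pairs). The authors' library labels also begin with a code that libraries of different groups can share. Vehicle libraries share theirs with doxycycline libraries, and with no RMC-6272, RMC-4627 or sorafenib library. Code and treatment therefore cannot be told apart in comparisons of RMC-6272 or sorafenib with vehicle. At each RMC-6272 time with replicates, the library highest for most of the P450 genes carries the same code. So does another RMC-6272 replicate, which was not the highest of its group for most of them. Both sorafenib 24 h libraries share another code. What the codes stand for is not stated, and grouping by them was not tested. Promoters came from RefSeq (GRCm38.p6), and shared 50-base stretches from GENCODE transcripts of the same build, not mm9, so no coordinate was transferred.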

Additional observations from a re-analysis of the deposited data

Results flagged for a closer look

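Cyp4f13 differed between times of RMC-6272. Its log2(FPKM + 1) was -1.26 at 48 h minus 24 h (limma, adjusted p = 0.0466 over all genes), with all 3 libraries at 48 h below all 3 at 24 h. The call was lost without a filter on low values, with Xist as covariate, in the fit of all 24 libraries, and without RMC-6272 24 h replicate 1 or 2 or 48 h replicate 2 or 3.

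The single RMC-6272 12 h library entered no test. In it 36 of the 48 P450 genes were above every vehicle library, against 36.8% of all genes tested. Its albumin was at 9846 FPKM, also above every vehicle library.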

How the results depend on the processing

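The counts of the 48 genes called were recomputed under each alternative. Such counts, here and above, are set beside the main count alone, without the share of all genes called under the same alternative. For RMC-6272 24 h against vehicle (9 called) no alternative other than leaving out a library moved the count by over 1.5 times, and leaving out 1 library gave 4 to 11. At 48 h against vehicle (1 called) the count was 0 with a pseudocount of 0.1, 0 without a filter, 0 with Xist as covariate and 0 to 1 without 1 library. At 72 h (3 called) it was 5 with a pseudocount of 0.1 and 1 to 9 without 1 library, and of all calls 40.2% were higher, or 28.0% after quantile normalization. RMC-6272 48 h against 24 h (1 called) gave 0 without a filter, 0 with Xist as covariate, 0 in the fit of all 24 libraries and 0 to 2 without 1 library. RMC-6272 against sorafenib at 24 h (6 called) gave 3 without a filter and 0 to 7 without 1 library. Doxycycline against RMC-4627 (2 called) gave 1 with a pseudocount of 0.1, 0 with the 2 groups alone and 0 to 5 without 1 library. RMC-6272 against RMC-4627 (12 called) gave 4 with Xist as covariate, 5 with the 2 groups alone and 9 to 16 without 1 library. Doxycycline against vehicle (19 called) gave 34 with the 2 groups alone and 11 to 22 without 1 library. Where a group was left with 1 library, it was assumed to vary like the others. The 4 comparisons with 0 called (72 against 48 h, sorafenib at 24 h and over 3 times, RMC-6272 against sorafenib at 48 h) stayed at 0 in all alternatives run.

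With the replicate block, in numbers that do not pair the samples, RMC-6272 48 h against 24 h gave 2 and doxycycline against RMC-4627 gave 1, and no other count moved by over 1.5 times. Over 53 results of single genes and 648 alternatives, 474 stayed on their side of the threshold, 173 no longer passed and 1 changed sign, Cyp2c55 in RMC-6272 against RMC-4627 without RMC-4627 replicate 1 (0.12 log2, adjusted p = 0.545, and -2.55 log2 without replicate 2). Median-ratio scaling moved summed FPKM by more than the SD only where depth is unknown, to 83.8, 2900, 1842 and 137 for families 1 to 4 in doxycycline and to 1474 and 130 for families 3 and 4 in RMC-4627. The cause of these moves was not tested. Groups of 2 or 3 libraries with wide spread limit what can be called among the highest genes, and shared sequence limits the 18 genes with over 20% of their 50-base stretches in another gene.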
